A study of Mus musculus with 18 samples.

Results

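The BCL2 family decides whether a cell keeps its mitochondria intact or commits to apoptosis. Survival members (MCL1, BCL2, BCL-XL and A1) bind and hold back the pore formers BAX and BAK, and BH3-only members (BIM, BID, PUMA) are the death signals that neutralise the survival members or engage the pore formers. MCL1 is known for a protein that is degraded quickly, so its level follows ongoing synthesis closely. A1 and BCL-XL are well-known targets of NF-kappa B, which LPS switches on in macrophages. Here, 10 members were chosen by name and followed in RAW macrophages: Mcl1, Bcl2, Bcl2l1 (BCL-XL), Bcl2a1b and Bcl2a1d (A1 paralogs), Bax, Bak1, Bid, Bcl2l11 (BIM) and Bbc3 (PUMA). All 10 were among the 11243 protein-coding genes of the count table, and the question put to them was how the mRNA of the short-lived Mcl1 compared with that of the others under torin1.

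RAW264.7 is an established mouse macrophage line, here without a genetic modification named in the labels. Cells received vehicle (DMSO, called control here), 500 ng/mL LPS for 6 h, or the same LPS with 100 nM torin1 that was added 15 min earlier. LPS is the bacterial agonist of TLR4 and torin1 is an active-site inhibitor of mTOR, and no group of torin1 without LPS was analysed here. Each of 9 lysates (3 treatments in 3 experiments) gave a total mRNA library and a library of pooled heavy-polysome mRNA, so there were 18 libraries, each with 27800983 to 47725557 counts. All 8 macrophage markers checked were counted, the lowest value being 0.486 CPM in total mRNA, and none of the 3 markers each of B cells, T cells, fibroblasts and epithelial cells was in the table. The study removed genes without a count in at least 1 sample, so absence from the table does not show that a marker was unexpressed. Values are CPM, the usual depth-scaled counts, after scaling by the trimmed mean of M values (TMM), so each describes a share of a library, and less RNA per cell cannot be told apart from fewer cells. Torin1 and LPS each can change the amount of mRNA in a lysate, which these shares do not carry. Counts behind single values ran from 46 for Bcl2 to 64943 for Mcl1.

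Members were called higher or lower at an adjusted p of at most 0.25 in edgeR's quasi-likelihood test, the false discovery rate of the study's methods. With that threshold the calls were common across the table, so each count of members is given beside the share of all genes called in the same direction.

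The A1 paralogs need their sequences to be read correctly. Bcl2a1b (chr9:89199209-89207827, plus strand, GRCm38) and Bcl2a1d (chr9:88723285-88731914, minus strand) share 513 of 519 coding bases (98.84%), with 217 bases in a row identical. The first 60 coding bases, shown because they hold 2 of the differences (in capitals), read on the coding strand of exonic sequence:
Bcl2a1b: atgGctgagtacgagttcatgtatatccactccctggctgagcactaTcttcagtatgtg
Bcl2a1d: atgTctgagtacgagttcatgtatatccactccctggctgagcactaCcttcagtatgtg
A read that covers none of the differing bases does not tell the paralogs apart. A further paralog, Bcl2a1a, shares 508 and 512 coding bases with them. How the counting handled reads with several matches is not given in the sources used here, so the split between paralogs is uncertain and their values are best read together. Bcl2a1b also overlaps the protein-coding Gm29094 on its own strand, and Bcl2a1d overlaps the antisense Gm10634.

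The likeness reaches upstream. The RefSeq promoters of both paralogs (GRCm38.p6) share a stretch of 142 aligned columns with 1 mismatch and 6 gap columns, 95.1% identical, shown because both genes moved together after LPS. A link between the promoters and that joint change was not tested, and the split of reads between the paralogs is uncertain. Capitals mark the mismatch and the extra bases of Bcl2a1b, and the stretches are chr9:89199023-89199164 (plus strand) and chr9:88731915-88732050 (minus strand):
Bcl2a1b: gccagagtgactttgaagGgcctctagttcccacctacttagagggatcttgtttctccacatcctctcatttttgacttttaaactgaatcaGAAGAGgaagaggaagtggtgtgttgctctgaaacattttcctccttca
Bcl2a1d: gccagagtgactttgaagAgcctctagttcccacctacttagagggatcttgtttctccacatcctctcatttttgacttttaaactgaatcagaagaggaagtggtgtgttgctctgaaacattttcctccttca
The kappa B consensus was searched on the gene's strand in the 250 bases before each RefSeq start. A companion pattern, meant for the opposite strand, differs from the true reverse complement, so that strand was not properly searched. Neither pattern matched in either A1 promoter or in that of Mcl1. The consensus itself matched in a Bcl2l1 promoter and a Bbc3 promoter. The Bak1 promoter matched only the companion pattern, at a site that fits the consensus on neither strand. At least 1 of the patterns matched in 7.82% of 32851 promoters, and in at least 1 promoter of 11.1% of 8568 counted genes. A match is a description of letters in a window and says nothing on binding.

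Mcl1 (chr3:95658788-95663176, plus strand) has a 3′ UTR of 2353 bases in the transcript examined. It holds the AU-rich pentamer ATTTA 8 times, or 3.4 times per kb against a median of 1.326 per kb over 9990 counted genes, and a lower density was found in 83.7% of them. The longer form TATTTAT, present at least once in 28.4% of those genes, occurs 3 times. These sites are shown because such elements are a known feature of short-lived mRNAs, with the motif in capitals:
Site 1, chr3:95660882-95660911: gaaaacatgtgTATTTATgaaggtggactt
Site 2, chr3:95662578-95662607: ttgtacctgtgTATTTATccttgatcatag
Site 3, chr3:95662603-95662632: catagtttgctTATTTATgtttaactcttc
Among the other members, Bcl2 had 15 ATTTA pentamers in 5086 bases and Bcl2l11 had 6 in 4218 bases. Bcl2l1, Bcl2a1b and Bcl2a1d had 1 each, and Bax, Bak1, Bid and Bbc3 had 0. Per kb this was 2.95 for Bcl2, 1.42 for Bcl2l11 and 0.679 for Bcl2l1. Bcl2a1b (6.8) and Bcl2a1d (6.71) had a higher density than Mcl1, in short UTRs of 147 and 149 bases. The longer form TATTTAT occurred 2 times each in Bcl2 and Bcl2l11 and 1 time in Bcl2l1, so neither feature was particular to Mcl1.

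The remaining members lie on several chromosomes (GRCm38). Bcl2 is at chr1:106538178-106714274 (minus strand), Bcl2l1 at chr2:152780668-152831728 (minus) and Bcl2l11 at chr2:128126038-128162547 (plus). Bax is at chr7:45461697-45466898 (minus), Bbc3 at chr7:16308393-16318205 (plus), Bak1 at chr17:27019810-27029009 (minus) and Bid at chr6:120891930-120916853 (minus). Bax overlaps Gm45808 on its own strand, Bak1 overlaps Ggnbp1 and Bid overlaps Bcl2l13 on the opposite strand, so their counts carry some uncertainty at the shared bases.

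In total mRNA of control cells Mcl1 led the 10 members by a wide margin. Its total mRNA stood at 158 ± 32.9 CPM per kb of exon (SD, n = 3), above 98.5% of 10735 genes with a length. The pore formers followed, Bax at 82.2 ± 5.21 and Bak1 at 61.7 ± 4.42 CPM per kb. Bid, which caspase-8 cleaves to link death receptors to mitochondria, stood at 28.3 ± 4.18 CPM per kb. Bcl2a1d (10.5 ± 0.816) and Bcl2l1 (10.3 ± 1.50) did not differ beyond their spread, and Bcl2a1b stood at 7.35 ± 0.572 CPM per kb. Bcl2l11 reached 4.02 ± 0.825 CPM per kb. Bcl2, the founding survival gene, was low at 1.21 ± 0.0588 CPM per kb and did not separate from Bbc3 at 1.04 ± 0.192.

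**Figure D1:**
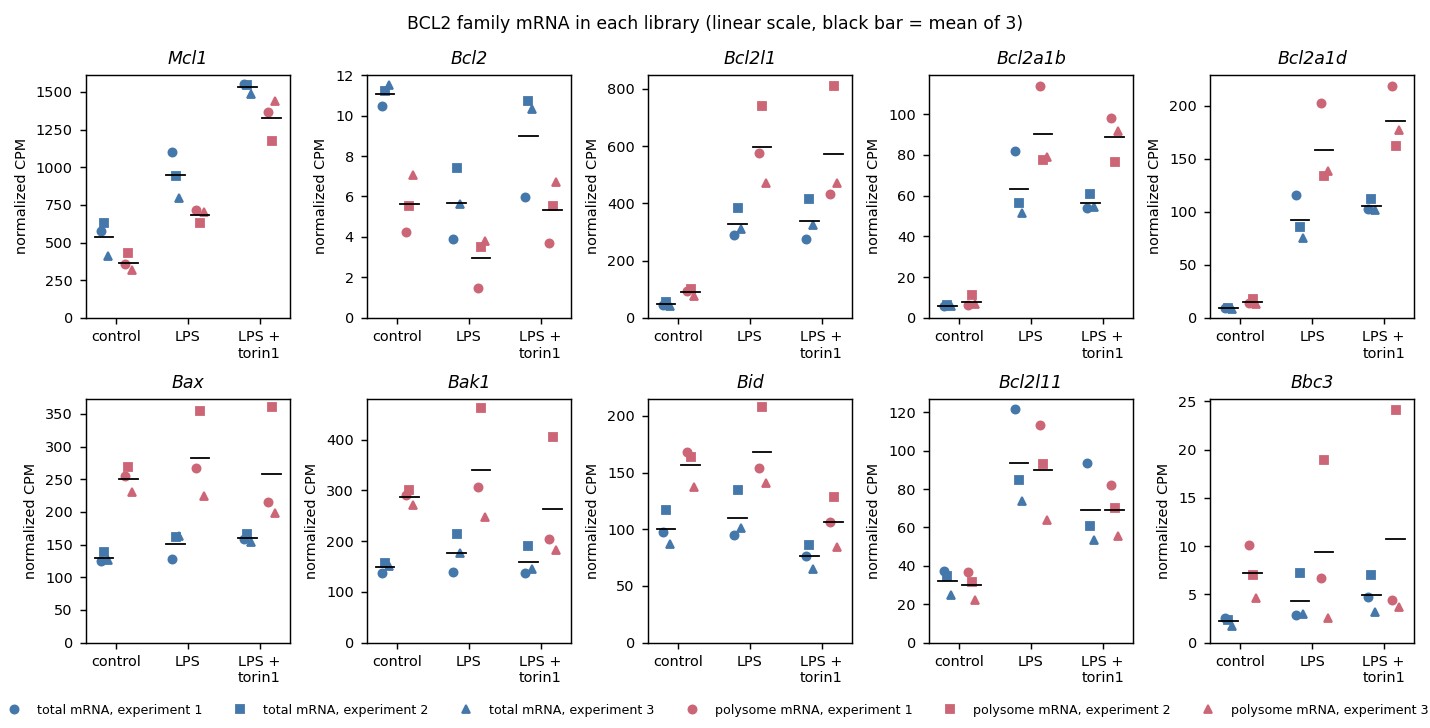
Normalized CPM (linear axis from 0, 1 panel per gene) of the 10 members in each of the 18 libraries, by treatment, with total mRNA in blue, polysome-associated mRNA in red, a marker shape per experiment and a black bar at the mean of 3. Mcl1 stands higher with LPS than in control and higher again with LPS plus torin1, Bcl2l1 and both A1 genes are high in all LPS libraries, and the experiment 2 polysome libraries are the highest of their LPS groups for Bax, Bak1, Bid and Bbc3.

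LPS against control asks which survival and death genes macrophage activation changed. In total mRNA, 7 members were higher and 1 was lower, and in polysome-associated mRNA 5 were higher and 1 was lower. Over all genes, 32.2% were called higher and 34.3% lower in total mRNA, and 26.4% higher and 28.7% lower in polysome-associated mRNA. The median log2 fold change of the members was 0.89 in total and 0.64 in polysome-associated mRNA, beside −0.02 and −0.03 over all genes. Scaling by library totals instead of TMM lowers the all-gene median of this comparison by 0.37 (total) and 0.35 (polysome) on the log2 scale, and takes the share of higher calls among all called genes from 48.4% to 19.8% in total mRNA and from 47.9% to 20.1% in polysome-associated mRNA. Changes smaller than that shift therefore depend on the scaling.

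The inducible survival genes showed the large changes. Bcl2a1b total mRNA was 5.95, 6.49 and 5.56 CPM in control and 81.8, 56.4 and 51.7 CPM with LPS in experiments 1, 2 and 3. The groups stood far apart, at a log2 fold change of 3.40 ± 0.18 (SE, adjusted p = 5.2e-07). Bcl2a1d total mRNA went from 9.26, 9.65 and 8.28 CPM to 116, 85.7 and 75.4 CPM, a log2 fold change of 3.35 ± 0.16 (adjusted p = 3.93e-07). In polysome-associated mRNA the changes were 3.50 ± 0.26 and 3.39 ± 0.22 on the log2 scale, and A1 polysome levels rose to 77.7 to 114 CPM (Bcl2a1b) and 134 to 202 CPM (Bcl2a1d). Bcl2l1, whose product BCL-XL guards the outer mitochondrial membrane, was 44.7, 55.0 and 42.0 CPM in control and 288, 384 and 309.9 CPM with LPS in total mRNA. Its log2 fold change was 2.79 ± 0.18 (adjusted p = 2.28e-06), above that of 98.2% of genes, and 2.73 ± 0.28 in polysome-associated mRNA.

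Mcl1 rose less steeply from its higher base. Its total mRNA was 574, 629 and 413 CPM in control and 1099, 940.5 and 798 CPM with LPS, and its polysome-associated mRNA was 357, 428 and 315 CPM against 714, 632 and 704.5 CPM. The lowest LPS library lay above the highest control library in both RNA types. The log2 fold changes were 0.81 ± 0.17 (adjusted p = 0.00252) in total and 0.90 ± 0.16 (adjusted p = 0.00183) in polysome-associated mRNA. Bcl2 went the other way: 10.5, 11.2 and 11.5 CPM in control total mRNA became 3.91, 7.41 and 5.65 CPM. The fall of 0.97 ± 0.26 on the log2 scale (adjusted p = 0.0115) was matched in size in polysome-associated mRNA, where it fell by 0.93 ± 0.36 (adjusted p = 0.0741).

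Among the death genes, Bcl2l11 stood out. It encodes BIM, a BH3-only protein that binds all survival members, and rose from 37.2, 34.9 and 24.8 CPM to 122, 84.7 and 74.0 CPM in total mRNA. Its log2 fold change was 1.53 ± 0.25 (adjusted p = 0.00067), and 1.58 ± 0.25 (adjusted p = 0.000924) in polysome-associated mRNA. Bbc3, a p53 target, was called higher in total mRNA at 0.98 ± 0.40 (adjusted p = 0.0673). Its LPS values were 2.88, 7.17 and 2.96 CPM against 2.55, 2.32 and 1.76 CPM in control, so experiment 2 carried most of the change, and without that experiment the log2 fold change was 0.44 (adjusted p = 0.287). In polysome-associated mRNA Bbc3 was not called at 0.38 ± 0.78, with 6.68, 18.9 and 2.54 CPM after LPS.

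The pore formers moved little. Bax total mRNA was 124.1, 139 and 126 CPM in control and 128, 162 and 163 CPM with LPS, a log2 difference of 0.22 ± 0.11 that was called higher (adjusted p = 0.139). The call was lost without experiment 2 (adjusted p = 0.262) or 3 (adjusted p = 0.548), and with library totals the difference turned to −0.14 (adjusted p = 0.322). Bak1 (0.25 ± 0.17, adjusted p = 0.257) and Bid (0.13 ± 0.16, adjusted p = 0.539) were not called in total mRNA. With the experiment number as a block they were called higher (adjusted p = 0.0707 and 0.229), and Bak1 also without experiment 1 (adjusted p = 0.136), but library totals gave −0.12 for Bak1 and −0.23 for Bid, the latter called lower (adjusted p = 0.245). None of Bax, Bak1 and Bid was called in polysome-associated mRNA, at 0.17 ± 0.24, 0.24 ± 0.31 and 0.10 ± 0.20, values that turned to −0.19, −0.12 and −0.25 with library totals.

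Beside the values of Bax, Bak1 and Bbc3 stands a property of the libraries. The transcript GC content of these genes was higher than that of 93.3%, 85.1% and 99.7% of genes. Each library's deviation was taken from the mean of the other libraries of its group. In the LPS and the LPS plus torin1 polysome libraries of experiment 2 it rose with transcript GC across genes (Spearman rho 0.534 and 0.609 over 10735 genes, which are not independent replicates). Other libraries deviated with GC too: rho was 0.651 in the control polysome library of experiment 1, where Bax and Bak1 deviated by only 0.03 and 0.02 on the log2 scale and Bbc3 by 0.82. It was −0.505 in the control polysome library of experiment 2 and −0.552 in the LPS total library of experiment 1, the lowest of the 18 libraries. Within a group the deviations cancel out for each gene, so values from the same group, such as 0.651 and −0.505, are not independent. In the experiment 2 polysome libraries of both LPS groups Bax stood at 355 and 360.5 CPM and Bak1 at 463 and 404 CPM, the highest of their groups. A correction of each library for GC, chosen after seeing the data, gave polysome log2 fold changes of 0.43 for Bax (adjusted p = 0.04), 0.38 for Bak1 (adjusted p = 0.15) and 0.83 for Bbc3 (adjusted p = 0.198), all called higher. The part of library composition in these 3 genes was otherwise not tested.

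**Figure D2:**
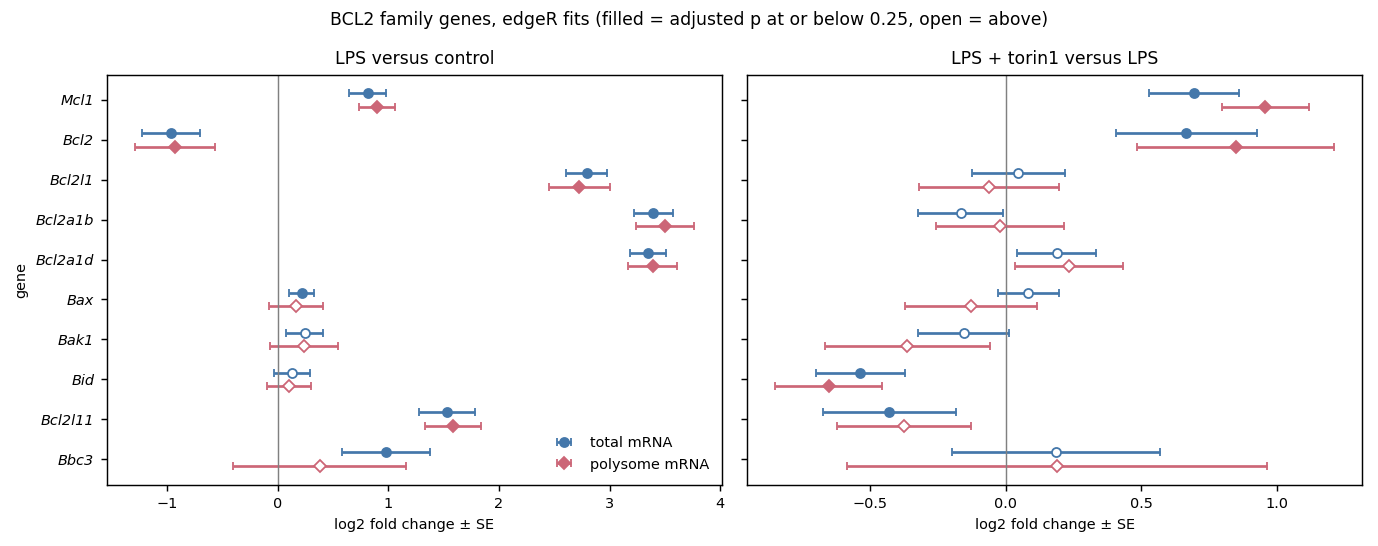
Log2 fold change with its standard error for each member, LPS versus control on the left and LPS plus torin1 versus LPS on the right (the panels have different axes), with total mRNA as blue circles, polysome-associated mRNA as red diamonds, and filled symbols for adjusted p at or below 0.25. On the left Bcl2a1b, Bcl2a1d and Bcl2l1 lie near 3 and Bcl2 near −1, and on the right Mcl1 and Bcl2 lie above 0 and Bid below in both RNA types.

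LPS plus torin1 against LPS asks what mTOR inhibition added to the activated state. In total mRNA 2 members were higher (Mcl1, Bcl2) and 2 were lower (Bid, Bcl2l11), and in polysome-associated mRNA 2 were higher (Mcl1, Bcl2) and 1 was lower (Bid). Over all genes, 27.3% were called higher and 26.4% lower in total mRNA, and 20.3% higher and 18.2% lower in polysome-associated mRNA, so the number of members called was near what the table as a whole shows. The median log2 fold change of the members was 0.06 in total and −0.04 in polysome-associated mRNA, beside 0.00 over all genes in both. This comparison uses the same LPS libraries as the one above, so their values enter both with opposite sign.

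Mcl1 was higher with torin1 in every experiment. Its total mRNA was 1554, 1548 and 1489 CPM with LPS plus torin1 against 1099, 940.5 and 798 CPM with LPS. Its polysome-associated mRNA was 1370, 1176 and 1438 CPM against 714, 632 and 704.5 CPM, and neither pair of groups overlapped. The log2 fold change was 0.69 ± 0.17 in total mRNA (adjusted p = 0.0112), above that of 89.4% of genes. It was 0.96 ± 0.16 in polysome-associated mRNA (adjusted p = 0.0045), above that of 94.5% of genes, with 0.94, 0.90 and 1.03 in experiments 1, 2 and 3. Under the 13 alternative settings Mcl1 stayed called higher in each RNA type, at 0.61 to 0.80 in total mRNA (largest adjusted p = 0.0626) and 0.93 to 1.02 in polysome-associated mRNA (largest adjusted p = 0.111).

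Bcl2 also stood higher with torin1, at 5.99, 10.7 and 10.3 CPM in total mRNA against 3.91, 7.41 and 5.65 CPM with LPS, groups that overlapped. The log2 fold change was 0.67 ± 0.26 (adjusted p = 0.0795) in total mRNA. In polysome-associated mRNA, at 3.68, 5.54 and 6.71 CPM against 1.48, 3.51 and 3.81 CPM, it was 0.85 ± 0.36 (adjusted p = 0.147). Both calls were lost without experiment 3 (adjusted p = 0.389 and 0.392). Bcl2 rests on few counts, and it overlaps the antisense D630008O14Rik, from which reads could not be told apart if strand was not used in the counting.

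The LPS-induced survival genes did not separate between LPS and LPS plus torin1. Bcl2l1 total mRNA was 277, 415 and 323 CPM with torin1, a log2 difference of 0.05 ± 0.17 (adjusted p = 0.869), and in polysome-associated mRNA it was −0.06 ± 0.26. Bcl2a1b gave −0.17 ± 0.16 in total and −0.02 ± 0.23 in polysome-associated mRNA. Bcl2a1d gave 0.19 ± 0.15 and 0.23 ± 0.20, and with the experiment as a block its total mRNA was called higher (adjusted p = 0.201). Without experiment 1 the Bcl2a1d difference in total mRNA was 0.40 (adjusted p = 0.0682).

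The death genes that changed were lower. Bid total mRNA was 76.7, 86.4 and 64.9 CPM with torin1 against 95.3, 134.5 and 100.9 CPM with LPS, and the groups did not overlap. The log2 fold change was −0.54 ± 0.16 (adjusted p = 0.0328). Bid polysome-associated mRNA was 106.3, 128.7 and 84.7 CPM against 154, 207 and 141 CPM, a log2 fold change of −0.65 ± 0.20 (adjusted p = 0.0517). That call was lost without experiment 1 (adjusted p = 0.263) or 3 (adjusted p = 0.267). Bcl2l11 fell by 0.43 ± 0.25 on the log2 scale in total mRNA (adjusted p = 0.214), from 122, 84.7 and 74.0 to 93.7, 60.7 and 53.6 CPM. It was lower in each experiment although the groups overlapped, and the call was lost without experiment 2 (adjusted p = 0.431) or 3 (adjusted p = 0.323) and with library totals (adjusted p = 0.323). In polysome-associated mRNA Bcl2l11 was called lower with the experiment as a block (adjusted p = 0.0544), and the value without it was −0.38 ± 0.25 (adjusted p = 0.341).

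Bax and Bak1 showed no call in the fit without a block. Bax gave 0.08 ± 0.11 in total and −0.13 ± 0.24 in polysome-associated mRNA. Bak1 gave −0.16 ± 0.17 and −0.36 ± 0.31, and with the block it was called lower in total (adjusted p = 0.234) and in polysome-associated mRNA (adjusted p = 0.167). Bak1 polysome values with torin1 were 204, 404 and 182 CPM against 306, 463 and 248 CPM with LPS, lower in each experiment. Without experiment 2 the Bak1 polysome difference was −0.52 and called lower (adjusted p = 0.0512). With the block, polysome-associated mRNA had 2 members higher and 3 lower, while 25.4% of all genes were called higher and 24.3% lower. Total mRNA had 3 higher and 3 lower, while 32.6% of all genes were called higher and 31.4% lower. The block thus raised the calls over the whole table as well. Bbc3 gave 0.19 ± 0.39 and 0.19 ± 0.78, with 4.40, 24.1 and 3.72 CPM in polysome-associated mRNA.

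Mcl1 was then set against each other member, as the log2 ratio of Mcl1 to that gene in LPS plus torin1 minus the same ratio in LPS. Such a ratio does not depend on the scaling of a library. The ratio rose in all 3 experiments for 7 of 9 genes in total mRNA and for 8 of 9 in polysome-associated mRNA. For 6 of 9 genes in each RNA type the LPS plus torin1 ratios did not overlap those of LPS. The matching share over all genes was not computed. All 9 ratios hold the same Mcl1 values. The Mcl1 change lay above that of 89.4% of genes in total and 94.5% in polysome-associated mRNA. A rise of its ratio against most genes of the table follows from this, so these counts largely restate the Mcl1 rise. The exact two-sided permutation test of 3 against 3 libraries cannot go below p = 0.1, which these 6 reached, and the lowest adjusted p over the 9 pairs of an RNA type was 0.15, so no pair could pass at 0.05.

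Bid gave the largest mean gain in both RNA types. Relative to Bid, Mcl1 gained 1.24 ± 0.38 (SD, n = 3) on the log2 scale in total and 1.61 ± 0.15 in polysome-associated mRNA. Relative to Bcl2l11 it gained 1.15 ± 0.25 and 1.31 ± 0.09. Relative to Bak1 it gained 0.86 ± 0.33 and 1.36 ± 0.24, and relative to Bax 0.62 ± 0.40 and 1.11 ± 0.21. Against the induced A1 genes the gain was 0.85 ± 0.24 and 0.96 ± 0.18 for Bcl2a1b, and 0.50 ± 0.17 and 0.71 ± 0.11 for Bcl2a1d. Against Bcl2l1 it was 0.67 ± 0.15 and 1.05 ± 0.30. The ratios to Bcl2l1, Bcl2 and Bbc3 overlapped between LPS plus torin1 and LPS in both RNA types. Bcl2 was the exception, with 0.04 ± 0.15 and 0.03 ± 0.34, of mixed sign over the experiments in both RNA types. Bbc3 gave 0.45 ± 0.56 and 0.86 ± 0.59, and experiment 1 had the opposite sign in total mRNA. Taking the median of the other 9 genes in each experiment, the change of Mcl1 exceeded it by 0.69 ± 0.14 in total and 1.09 ± 0.25 in polysome-associated mRNA.

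**Figure D3:**
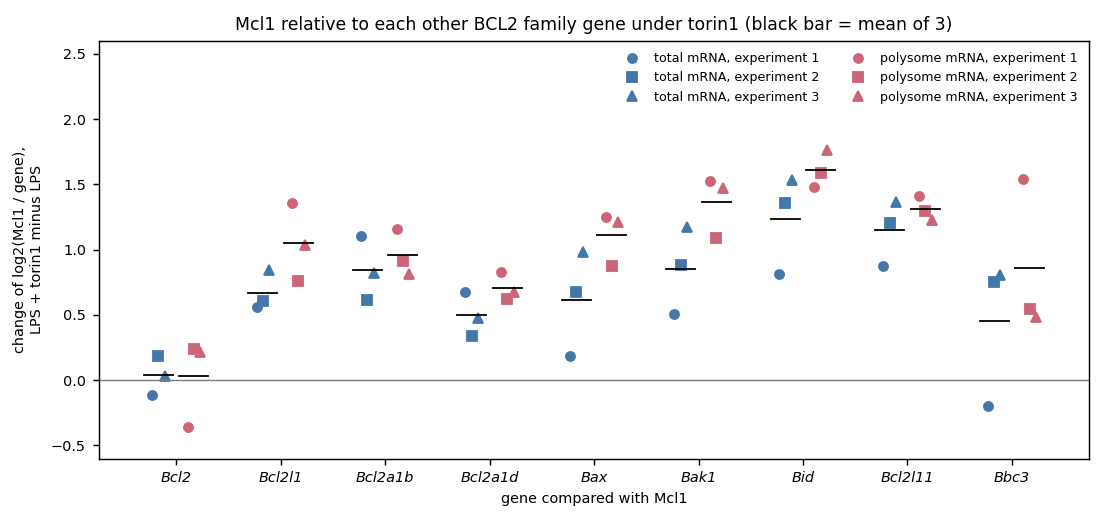
Change of the log2 ratio of Mcl1 to each of the 9 other members, LPS plus torin1 minus LPS (vertical axis), with 1 marker per experiment, total mRNA in blue, polysome-associated mRNA in red and a black bar at the mean of 3. Markers lie above 0 in every experiment except for Bcl2 and for Bbc3 total mRNA in experiment 1, and the bars are highest for Bid.

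LPS plus torin1 against control shows where each gene ended. In total mRNA 7 members were higher and 1 was lower, while 33.1% of all genes were called higher and 33.6% lower. In polysome-associated mRNA 5 were higher and 1 was lower, while 28.5% of all genes were called higher and 29.7% lower. Mcl1 ended at a log2 fold change of 1.51 ± 0.17 in total (adjusted p = 5.13e-05) and 1.86 ± 0.17 in polysome-associated mRNA (adjusted p = 2.13e-05). The polysome value is a 3.62-fold difference, with mean levels of 1328 against 367 CPM. Bcl2l1 (2.84 and 2.66), Bcl2a1b (3.23 and 3.48), Bcl2a1d (3.53 and 3.62) and Bcl2l11 (1.10 and 1.20) were called higher in both RNA types. Bid was lower by the fitted log2 values of −0.40 ± 0.16 (adjusted p = 0.0653) and −0.55 ± 0.20 (adjusted p = 0.0511), the polysome call being lost without experiment 1 (adjusted p = 0.294). Bcl2 was not called, at −0.30 ± 0.25 and −0.08 ± 0.36, although its total mRNA was called lower with the block (adjusted p = 0.123). Bax total mRNA was called higher at 0.30 ± 0.11 (adjusted p = 0.0483), a difference of 0.01 with library totals. Without experiment 2, Bax and Bbc3 were called lower in polysome-associated mRNA, at −0.23 and −0.85, and Bak1 was called lower at −0.54. With all 3 experiments the values were 0.04 ± 0.24, 0.57 ± 0.78 and −0.12 ± 0.31 with no call, and with the GC correction Bax (0.30, adjusted p = 0.135) and Bbc3 (0.91, adjusted p = 0.153) were called higher, so the direction depended on the setting.

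Polysome-associated against total mRNA places each gene by its share in heavy polysomes relative to the average mRNA. In control cells 7 members were higher in polysome-associated mRNA and 2 were lower (36.3% of all genes higher, 33.2% lower). With LPS the counts were again 7 and 2 (34.1% and 31.1%), and with LPS plus torin1 they were 7 and 1 (27.8% each way). The pore formers stood high in heavy polysomes: in control lysates Bax gave 1.03, 0.96 and 0.88 and Bak1 gave 1.08, 0.94 and 0.84 on the log2 scale, and the fits were 0.96 ± 0.19 (adjusted p = 0.0011) and 0.96 ± 0.26 (adjusted p = 0.00723). Bcl2l1 gave 0.94 ± 0.23, above 91.5% of genes. Bbc3 gave 1.71 ± 0.71, above 99.4% of genes, but it had few counts (60 at the lowest), and the call was lost without experiment 1 in each treatment (adjusted p = 0.27, 0.436 and 0.309 in control, LPS and LPS plus torin1). It was also lost without experiment 2 after LPS (adjusted p = 0.287) and after LPS plus torin1 (adjusted p = 0.964). Bcl2a1b in control (0.41 ± 0.22) was no longer called without experiment 2 (adjusted p = 0.571) or 3 (adjusted p = 0.259).

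The 2 genes at the low end were Bcl2 and Mcl1. Bcl2 gave −0.98 ± 0.33 in control, above only 5.53% of genes. It gave −0.94 ± 0.34 with LPS and −0.78 ± 0.33 with LPS plus torin1, the last call being lost without experiment 2 (adjusted p = 0.328). Mcl1 gave −0.69, −0.55 and −0.39 in the control lysates, −0.61, −0.59 and −0.16 with LPS, and −0.19, −0.44 and −0.06 with LPS plus torin1. The fitted values were −0.55 ± 0.17 (adjusted p = 0.0119), −0.46 ± 0.17 (adjusted p = 0.0321, lost without experiment 1 at 0.254) and −0.22 ± 0.16 (adjusted p = 0.315). With each lysate as a block the last was called lower (adjusted p = 0.117). Mcl1 thus lay above 19.6%, 22.0% and 33.7% of genes in control, LPS and LPS plus torin1, with overlapping lysates. Bcl2l11 lay near the average mRNA in the 3 treatments, at −0.10, −0.05 and −0.02.

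**Figure D4:**
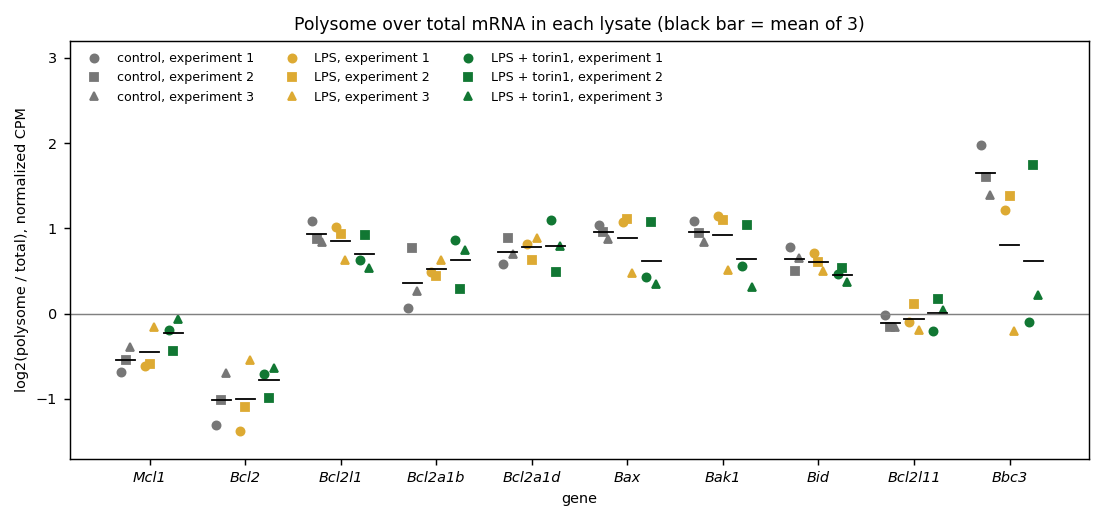
Log2 ratio of polysome-associated to total normalized CPM (vertical axis) for the 10 members in each lysate, with control in grey, LPS in yellow, LPS plus torin1 in green, a marker shape per experiment and a black bar at the mean of 3. Mcl1 and Bcl2 lie below 0 in every lysate, Bcl2l1, Bcl2a1b, Bcl2a1d, Bax, Bak1 and Bid lie above 0 in every lysate, and Bbc3 spreads most.

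Translation efficiency, the change in polysome-associated mRNA beyond that in total mRNA, was tested as an interaction over the 18 libraries. No member was called in any of the 3 contrasts, and 0% of all genes were, by edgeR. Without adjustment 44, 110 and 145 genes had p under 0.05 for LPS versus control, LPS plus torin1 versus LPS, and LPS plus torin1 versus control. A calibrated test would give more of the 11243 genes even with no change, so this test, which leaves out the shared lysates, was conservative. That 0 members were among these genes therefore says little about the members. DESeq2 called 0 members as well. With each lysate as a block 0, 25 and 3 genes of the table were called, and 0 members. For Mcl1 the torin1 contrast was 0.24 ± 0.23 (adjusted p = 1.00), with 0.42, 0.15 and 0.10 in experiments 1, 2 and 3, so its sign was positive in each, and 93.1% of genes had a lower value. An analysis of partial variance, in which polysome-associated mRNA is regressed on total mRNA, gave Mcl1 an effect of 0.65 ± 0.27 in the same contrast (unadjusted p = 0.0442, adjusted p = 0.793). Bax (−0.24 ± 0.27) and Bak1 (−0.23 ± 0.37) had negative values of like size in the interaction test. The Mcl1 increase under torin1 was thus measured in both RNA types, and a difference between them was not detected by these tests.

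The rest of the pathway was read from 5 lists of related genes, whose counts stand beside the shares of all genes called in polysome-associated mRNA, 26.4% higher and 28.7% lower after LPS and 20.3% higher and 18.2% lower under torin1. These lists were not tested as lists. They were chosen with earlier results of these data known, so their counts are not independent of that choice. Of 11 other BCL2 family genes in the table, 4 were higher and 5 lower in polysome-associated mRNA after LPS, with a median log2 fold change of −0.26. Bcl2a1a, the further A1 paralog, rose by a log2 fold change of 5.47 ± 0.42 from 0.0675 to 0.15 CPM to 3.28 to 7.59 CPM, with the read sharing described above. Its control values rest on a handful of reads near the floor of the table, so the size of the change is uncertain. Bcl2l2 (BCL-W, a survival member) rose by 0.82 ± 0.17. Bmf, a BH3-only gene, fell from 16.8, 12.9 and 23.2 CPM to 1.13, 1.86 and 1.40 CPM, a log2 fold change of −3.58 ± 0.32. Bok, a BAX relative also near the floor, fell by 1.35 ± 0.57 from a control level of 0.591, 0.248 and 0.357 CPM, a call lost without experiment 1 (adjusted p = 0.567). Under torin1 2 of the 11 were higher and 3 lower: Bnip3l, a mitophagy receptor, rose from 26.1, 25.7 and 20.99 to 60.6, 56.3 and 58.8 CPM (1.27 ± 0.15), and Bcl2l2 rose again (0.52 ± 0.17). The second Bcl2l2 call was lost without experiment 1 (adjusted p = 0.279) or 3 (adjusted p = 0.403). The Bnip3l relative Bnip3 fell by 1.45 ± 0.26 and Bmf by 1.51 ± 0.34 on the log2 scale.

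Among 16 mitochondrial death effectors, 3 were higher and 5 lower in polysome-associated mRNA after LPS (median −0.11; 26.4% and 28.7% of all genes). Under torin1 2 were higher and 4 lower (median −0.07; 20.3% and 18.2% of all genes), so these counts lay near those of the table. After LPS the caspase inhibitor Xiap rose by 0.84 ± 0.15 and Cycs (cytochrome c) by 0.46 ± 0.17. Endog, a mitochondrial nuclease, fell by 1.25 ± 0.34 on the log2 scale. Under torin1 the protease gene Htra2 (0.51 ± 0.21) and Apaf1, the apoptosome scaffold (0.32 ± 0.16), rose, while Cycs fell by 0.59 ± 0.17 and Endog by 0.81 ± 0.36. These 4 torin1 calls were each lost without experiment 1 or without experiment 3 (adjusted p from 0.252 to 0.606). The rise of Cycs with LPS was lost in the same way (adjusted p = 0.488 and 0.293) and was 0.09 with library totals.

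Of 16 genes of the death receptor pathway, 9 were higher and 2 lower in polysome-associated mRNA after LPS, with a median of 0.74 (26.4% of all genes were called higher and 28.7% lower, with a median of −0.03). Tnfrsf1b, the second TNF receptor, rose by 5.77 ± 0.25 and Fas by 5.11 ± 0.30, Fas going from 2.41, 3.76 and 3.19 to 106.8, 84.5 and 132 CPM. Fadd, the adaptor that joins FAS to caspase-8, fell by 0.75 ± 0.22 on the log2 scale. Under torin1 3 were higher and 5 lower (median −0.04; 20.3% and 18.2% of all genes): Tnfrsf1b (0.67 ± 0.21) and the deubiquitinase gene Cyld (0.55 ± 0.18) rose, and Mlkl, the necroptosis executor, fell by 0.88 ± 0.26 and Tnfrsf10b by 0.53 ± 0.23. Without experiment 3 these 4 calls were lost (adjusted p from 0.289 to 0.655), and without experiment 1 those of Cyld (0.345) and Tnfrsf10b (0.386) were.

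Genes for the turnover of MCL1 protein bear on how mRNA relates to protein, which was not measured. Of 8 in the table, 3 were higher and 2 lower in polysome-associated mRNA after LPS (median 0.10; 26.4% and 28.7% of all genes). Under torin1 2 were higher and 1 lower (median 0.02; 20.3% and 18.2% of all genes). March5, a mitochondrial ubiquitin ligase, rose from 57.3, 77.0 and 61.8 to 156, 176 and 148 CPM with LPS (1.29 ± 0.18) and fell by 0.78 ± 0.18 under torin1, to 82.3, 116.9 and 81.0 CPM. Cdc20 fell by 0.78 ± 0.16 with LPS and rose by 0.55 ± 0.15 under torin1. Btrc fell by 0.26 ± 0.14 and rose by 0.56 ± 0.14 in the same contrasts, and Usp9x, a deubiquitinase of MCL1, rose by 0.39 ± 0.18 with LPS. Usp9x gave 0.03 with library totals, and its call was lost without experiment 1 (adjusted p = 0.631) or 3 (adjusted p = 0.392). The LPS call of Btrc was lost without any 1 of the experiments (adjusted p from 0.426 to 0.454), and the torin1 calls of Btrc (adjusted p = 0.266) and Cdc20 (adjusted p = 0.256) without experiment 3, that of Cdc20 also without experiment 1 (adjusted p = 0.281).

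All 11 genes of transcription factors and cofactors linked to BCL2 family promoters were called under torin1 in polysome-associated mRNA, 4 higher and 7 lower, with a median of −0.47 (20.3% of all genes were called higher and 18.2% lower). At a false discovery rate of 0.05, 5 of the 11 were called. After LPS 6 were higher and 4 lower, with a median of 1.32 (26.4% and 28.7% of all genes). Nfkb1 rose with LPS from 177, 148 and 162 to 853, 693 and 828 CPM (2.29 ± 0.15). Trib3, a stress-induced pseudokinase gene, rose by 2.90 ± 0.70 with LPS and fell by 3.59 ± 0.73 under torin1 on the log2 scale. Atf4, the driver of the integrated stress response, fell by 1.19 ± 0.30 under torin1, from 842, 732 and 357 to 258, 367 and 219 CPM. The FOXO factors, known to drive Bcl2l11 and Bbc3, showed Foxo4 (−1.10 ± 0.24) and Foxo1 (−1.04 ± 0.22) lower with LPS. Under torin1 Foxo4 (0.84 ± 0.24) and Foxo3 (0.63 ± 0.18) were higher, calls lost without experiment 3 (adjusted p = 0.305 and 0.327), and that of Atf4 was lost without experiment 1 (adjusted p = 0.297).

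By the course over the 18 libraries (each RNA type centred on its own mean), the genes most like Mcl1 were Ptafr, Nub1, 4930402H24Rik, Klf8 and Arg2, with Pearson r of 0.983, 0.980, 0.979, 0.978 and 0.977 among 11242 genes. The r is a description over libraries that share treatments and lysates. Among the members r with Mcl1 was 0.884 for Bcl2a1d, 0.853 for Bcl2a1b, 0.819 for Bcl2l1 and 0.687 for Bcl2l11, and −0.583 for Bid. Ptafr, the receptor of platelet-activating factor, had total mRNA log2 fold changes of 2.35 in the LPS contrast and 1.88 in the torin1 contrast. Arg2, a mitochondrial arginase, had 2.74 and 1.87.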

How the data were processed

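RAW264.7 lysates gave TruSeq stranded, ribosomal RNA-depleted, paired-end libraries. The authors aligned reads with Hisat2 to GRCm38 and counted them per gene with featureCounts in a nextflow pipeline (version 1.3), and the deposited values are raw counts of 11243 protein-coding genes, none of them at 0 in any library. The aligner's version and the strand setting are not given in the sources used here. Counts were tested with edgeR 4.0.16 (TMM, quasi-likelihood, R 4.3.3), with the 3 treatments of an RNA type in 1 model and Benjamini-Hochberg adjustment over all genes at 0.25; translation efficiency and polysome against total mRNA used 1 model of 6 groups. Level values are TMM-scaled CPM, and log2 values use a prior count of 0.5. Ratios to Mcl1 were tested by exact permutation.

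Alternatives were DESeq2 1.42.0, RLE factors, library totals, a minimum of 10 counts, a false discovery rate of 0.05, leaving out each experiment, the experiment (or lysate) as a block, other sets of libraries in the model, a prior count of 2 and an analysis of partial variance with limma 3.58.1; a GC correction was added after seeing the data. The replicate number marks 3 independent experiments by the study's methods, and total and polysome libraries share lysates. Deviations from group means correlated within experiments (mean r 0.337, lowest 0.149 in total mRNA; mean 0.290, lowest −0.0918 in polysome-associated mRNA) more than between them (mean −0.167 and −0.143). The deviations of a group cancel out for each gene. The between-experiment means therefore largely follow from the within-experiment means and are no separate comparison. No replicates agreed within sampling noise (chi-squared per degree of freedom at least 26.3).

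The members and lists were chosen with earlier results of these data known. The text names every member; of each other list, the 2 rising and 2 falling called genes with the largest polysome log2 fold change of one sign in all 3 experiments, for LPS versus control and LPS plus torin1 versus LPS; and the 5 genes most correlated with Mcl1. A gene that this rule names is not reported here. Gene positions and transcripts came from GENCODE M21 (10754 genes matched) and promoters from RefSeq (10 of 10 members matched). In simulated counts, 200 of 11243 genes were given a log2 change of 2 between LPS and control, and the test recovered 99% in total mRNA, 98% in polysome-associated mRNA and 88% as translation efficiency. Of the 255, 273 and 224 genes called there, 57, 77 and 48 had not been changed. Member translation efficiency values lay between −0.63 and 0.33, and the simulated libraries shared no lysates. The simulation therefore does not give the power for changes of that size.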

Additional observations from a re-analysis of the deposited data

How the results depend on the processing

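The number of members called stayed within 1.5 times its value, or Mcl1 minus the median of the others within 1 SD, in all recomputations but 7. Those were as follows. With a false discovery rate of 0.05, LPS plus torin1 versus LPS gave 2 members in total mRNA (4 at 0.25) and 1 in polysome-associated mRNA (3 at 0.25), and polysome versus total mRNA after LPS plus torin1 gave 5 (8 at 0.25). Leaving out 1 experiment in turn gave 2 to 5 members in total mRNA and 1 to 4 in polysome-associated mRNA for LPS plus torin1 versus LPS, the low ends being without experiment 3. With the replicate block that contrast gave 5 members in polysome-associated mRNA, and 6 with the GC correction and the replicate block together, which was chosen after seeing the data. The block changed no other member's call than those given with the results, for the fits without GC correction.

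The sign of the difference turned for Bax (−0.14, no longer called) and Bid (−0.23, called lower where it was not called before) in total mRNA, LPS versus control, with library totals. Values with no call turned to a lower call for Bax (−0.23) and Bbc3 (−0.85) in polysome-associated mRNA, LPS plus torin1 versus control, without experiment 2 (0.16 and 1.26 without experiment 1, where neither was called). The cause was not tested. Library totals also moved the share of higher calls to 60.5% and 62.1% for LPS plus torin1 versus LPS, and to 26.4% and 27.0% for LPS plus torin1 versus control, from 50.9%, 52.7%, 49.6% and 48.9%. Mcl1 minus the median of the others was 0.62 to 0.76 in total and 0.95 to 1.20 in polysome-associated mRNA without 1 experiment. Among the members, depth limits Bcl2 and Bbc3, with as few as 46 and 60 counts.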
